A study of Homo sapiens with 18 samples.

Results

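The 10 genes described here are Eph receptors and ephrin ligands: the EphA receptors EPHA1, EPHA2 and EPHA4, the EphB receptors EPHB2, EPHB3 and EPHB4, the ephrin-A ligands EFNA1 and EFNA5, and the ephrin-B ligands EFNB1 and EFNB2. They were chosen by gene symbol from a count table of 19901 genes, which lists 22 Eph and ephrin genes in all. The table held mRNA sequencing counts from 18 libraries of established head and neck squamous cell carcinoma (HNSCC) lines. Detroit 562 came from a metastatic site of a pharyngeal tumor, FaDu from a primary hypopharyngeal tumor and SCC-9 from a primary tongue tumor. In each line, 3 libraries were from untreated cells (control) and 3 from cells given 50 ng/ml hepatocyte growth factor (HGF), the ligand of the receptor tyrosine kinase Met. Treatment lasted 16 h by the sample records and the paper, whereas the series record gives 48 h. SCC-9 was grown in another medium, which also held hydrocortisone, than the other lines, so in comparisons with SCC-9 the medium cannot be told apart from the line. All cells were detached with trypsin before RNA was isolated.

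Eph receptors form the largest family of receptor tyrosine kinases, and their ligands, the ephrins, are themselves bound to the membrane of neighbouring cells. Ephrin-A ligands are held by a lipid anchor and mainly bind EphA receptors, whereas ephrin-B ligands span the membrane, mainly bind EphB receptors and also signal into their own cell. Contact between the partners steers repulsion, adhesion and the sorting of cells into separate territories, and EPHA2 is a well studied member in epithelia and in carcinomas.

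The 250 bases upstream of the start sites of 4 of the genes are printed below, as given by RefSeq on GRCh38.p14 and written in the direction of transcription. EPHB3, EFNA1 and EFNB1 are shown because they were called in Detroit 562, and EPHA2 because it was the most abundant of the 10. All 10 genes matched the promoter table. Capitals mark the GC box GGGCGG on either strand, a motif of SP and KLF factors, and in EPHA2 also the cyclic AMP response element (CRE) TGACGTCA.

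EPHB3, plus strand, chr3:184561535-184561784:
EPHB3: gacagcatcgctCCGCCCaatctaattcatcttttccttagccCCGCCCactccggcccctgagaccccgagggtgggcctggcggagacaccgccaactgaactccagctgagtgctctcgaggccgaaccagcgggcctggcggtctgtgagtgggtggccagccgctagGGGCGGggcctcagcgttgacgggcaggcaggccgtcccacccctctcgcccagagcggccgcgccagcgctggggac
EFNA1, plus strand, chr1:155127626-155127875:
EFNA1: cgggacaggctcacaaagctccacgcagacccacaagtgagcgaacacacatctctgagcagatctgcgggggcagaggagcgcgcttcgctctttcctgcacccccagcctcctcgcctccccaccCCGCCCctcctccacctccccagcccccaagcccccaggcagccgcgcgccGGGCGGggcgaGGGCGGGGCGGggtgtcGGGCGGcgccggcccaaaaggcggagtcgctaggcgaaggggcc
EFNB1, plus strand, chrX:68828771-68829020:
EFNB1: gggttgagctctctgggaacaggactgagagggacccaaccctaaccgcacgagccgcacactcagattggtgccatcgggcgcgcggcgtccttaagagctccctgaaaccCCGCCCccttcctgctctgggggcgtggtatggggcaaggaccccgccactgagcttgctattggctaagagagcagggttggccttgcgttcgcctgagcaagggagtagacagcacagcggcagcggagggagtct
EPHA2, minus strand, chr1:16156070-16156319:
EPHA2: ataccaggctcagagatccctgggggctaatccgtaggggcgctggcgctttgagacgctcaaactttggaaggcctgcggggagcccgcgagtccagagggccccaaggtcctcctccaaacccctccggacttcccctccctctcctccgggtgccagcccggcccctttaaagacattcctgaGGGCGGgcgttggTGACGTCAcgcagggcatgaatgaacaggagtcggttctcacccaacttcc

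The GC box was found in a 250-base window of 10 of 10 genes and in 42.6% of 35116 promoter windows of the table. In EFNA1 the capitals run together where neighbouring matches overlap or adjoin. The CRE was found in EPHA2 alone among the 10 and in 1.65% of all windows. None of the windows of the 10 genes held the AP-1 letters TGANTCA, the ETS letters CCGGAAG, the TCF/LEF letters ATCAAAG or the E-box CACGTG, which were found on either strand in 6.57%, 8.52%, 2.26% and 6.35% of all windows. The printed windows were 70.0% G and C in EPHB3, 73.2% in EFNA1, 63.6% in EFNB1 and 63.2% in EPHA2, against a median of 58.0% over the table. Such matches describe the letters only. The gene extents used for counting began upstream of the RefSeq start in each of the printed genes. The EFNA1 window lies within its counted extent, whereas those of EPHB3, EFNB1 and EPHA2 overlap theirs only at the end next to the start site.

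Total counts per library ranged from 35304770 to 44003970. The counts cover the whole extent of each gene on its strand, introns included, and no extent of the 10 genes overlapped another gene of the table on the same strand. MET, the gene of the HGF receptor, had normalised counts (counts scaled by edgeR's TMM method to a common library size) of 30755 to 33468 in control Detroit 562, 5557 to 6443 in FaDu and 11060 to 12376 in SCC-9. Of 8 squamous epithelial markers, 8 reached 1 CPM (counts scaled to the TMM-adjusted library size) in every group except HGF-treated Detroit 562, where 7 did. KRT14, a basal keratin, was low in Detroit 562, between 0.852 and 1.43 CPM. The sum of 4 endothelial markers was between 0.639 and 8.34 CPM over all libraries, and KDR was at 0 in FaDu. Of 6 fibroblast markers at most 3 reached 1 CPM in a group, their sum reached 99.5 CPM in SCC-9, and PDGFRB was at 0 in Detroit 562. Of 4 leukocyte markers only CD68, which other cells also use, exceeded 1 CPM in any group. The number 3 libraries stood further from the others in Detroit 562 and FaDu. In Detroit 562 the chi-square per gene between control libraries 1 and 2 was 7.91, and that between either of them and library 3 was 50.5 and 33.5. The same values were 23.0, 43.1 and 41.4 for control FaDu and 35.3, 51.6 and 75.9 for HGF-treated FaDu.

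In untreated cells EPHA2 had the highest mean level per exon length of the 10 genes in each line. EPHA4, a receptor that binds ligands of both classes, had the lowest. Levels of different genes were compared as RPKM, the CPM divided by the exon length in kilobases. EPHA2 was at 47.5 ± 5.01 RPKM in Detroit 562, at 39.6 ± 1.31 RPKM in FaDu and at 30.1 ± 5.06 RPKM in SCC-9 (SD, n = 3 each, as for all values with ± not marked SE). In the same order EPHA4 was at 0.781 ± 0.019, 0.107 ± 0.0259 and 0.192 ± 0.0511 RPKM. In such bulk samples, fewer cells that use a gene and less of its RNA per cell cannot be told apart. The library ranges of EPHA2 lay clear of those of the next gene in Detroit 562 and FaDu, while in SCC-9 they overlapped with those of EFNB2 at 26.5 ± 1.43 RPKM. Without correction for length EFNB2 ranked 1 and EPHA2 ranked 2 in SCC-9.

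The order between these ends differed from line to line. In Detroit 562, EFNA1, EFNB1, EPHB2, EPHB4, EFNB2 and EPHA1 followed EPHA2 at 11.1, 10.7, 10.1, 9.04, 8.94 and 8.43 RPKM, and each of these overlapped with its neighbour. EPHB3 came below them at 5.03 and EFNA5 at 2.97 RPKM, each without overlap to the gene above. In FaDu, EFNB1 at 12.6, EPHB4 at 11.1, EFNA1 at 8.97 and EPHA1 at 6.87 RPKM stood in an order without overlap, whereas EPHB3, EFNB2 and EPHB2, at 4.29, 4.16 and 4.03 RPKM, could not be ordered. In SCC-9 the ligands stood near the top, with EFNB2, EFNB1 and EFNA1 at 26.5, 24.8 and 23.0 RPKM, followed by EPHB4 at 18.3 RPKM without overlap. EPHA1 and EPHB2 at 5.63 and 5.36 RPKM overlapped there, and so did EPHB3 at 0.454 and EPHA4 at 0.192 RPKM. EFNA5 lay between these pairs at 1.88 RPKM.

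**Figure D1:**
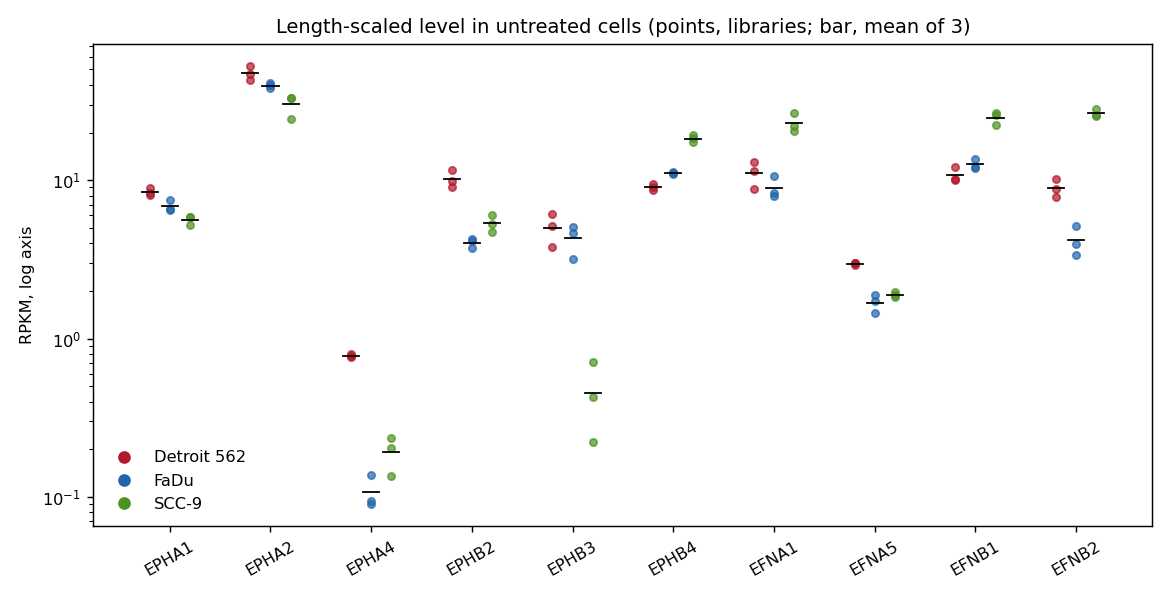
Level of each of the 10 genes in untreated cells in RPKM on a log axis, with 1 point per library and a bar at the mean of 3 libraries. EPHA2 has the highest mean in each line, EPHA4 the lowest, and EPHB3 is near 5 RPKM in Detroit 562 and below 1 in SCC-9.

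The untreated lines were then compared with each other to see which receptors and ligands set them apart. These 3 comparisons share libraries. Calls required an adjusted p under 0.1 in edgeR's quasi-likelihood test (Benjamini-Hochberg over 15475 genes) and a log2 fold change of 0.4 or more in either direction. Between Detroit 562 and SCC-9 all 10 genes were called, 6 higher and 4 lower in Detroit 562, where 65.4% of all genes tested were called, 31.4% higher and 33.9% lower. Between FaDu and SCC-9, 7 of 10 were called, 1 higher and 6 lower in FaDu, against 64.2% of all genes, 30.7% higher and 33.5% lower. Between Detroit 562 and FaDu, 4 of 10 were called, all higher in Detroit 562, against 61.0% of all genes, 31.2% higher and 29.8% lower.

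EPHB3, a receptor known for positioning cells along intestinal crypts, gave the widest contrast. In untreated cells Detroit 562 had 1109.5, 937 and 685 normalised counts, FaDu 913.5, 846 and 574, and SCC-9 40.2, 77.9 and 128, in the order of replicates 1 to 3. The SCC-9 libraries were all far below the others, whereas Detroit 562 and FaDu overlapped. EPHB3 was higher in Detroit 562 than in SCC-9 by a log2 of 3.48 ± 0.389 (SE, adjusted p = 3.80e-07, edgeR) and higher in FaDu than in SCC-9 by 3.25 ± 0.387 (SE, adjusted p = 8.84e-07, edgeR). Between Detroit 562 and FaDu the difference was 0.23 ± 0.331 (SE, adjusted p = 0.548, edgeR).

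EFNB2, the ephrin-B ligand best known from arteries, was highest in SCC-9. Untreated Detroit 562 had 1577, 1767 and 2021 normalised counts of EFNB2, FaDu 679, 788 and 1032, and SCC-9 5620.2, 5078 and 5191. No library of one line overlapped with another line. EFNB2 was lower by a log2 of -2.67 ± 0.139 in FaDu than in SCC-9 (SE, adjusted p = 2.61e-11, edgeR) and by -1.57 ± 0.133 in Detroit 562 than in SCC-9 (SE, adjusted p = 1.22e-08, edgeR), and higher in Detroit 562 than in FaDu by 1.10. EPHB4, its main receptor in vessels, was also highest in SCC-9, with 4942, 4740.5 and 4472 normalised counts there, while Detroit 562 had 2341, 2420.2 and 2225 and FaDu 2862, 2902 and 2820.0. The EPHB4 log2 differences were -1.02 for Detroit 562 and -0.72 for FaDu against SCC-9, both called, and -0.30 between Detroit 562 and FaDu, which is under the fold threshold. In RPKM the ratio of EFNB2 to EPHB4 came to 0.991 ± 0.158 for Detroit 562, 0.375 ± 0.0856 for FaDu and 1.44 ± 0.0598 for SCC-9.

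EFNA1, a ligand of EPHA2, and EFNB1, an X-linked ligand of EPHB receptors, were both higher in SCC-9 than in either other line. EFNA1 differed from SCC-9 by a log2 of -1.05 in Detroit 562 and -1.36 in FaDu, and EFNB1 by -1.21 and -0.98, all called. EFNA5, an ephrin-A ligand studied mainly in axon guidance, was higher in Detroit 562, by 0.82 over FaDu and 0.66 over SCC-9. Its normalised counts were 685, 666 and 689 in untreated Detroit 562, and all other untreated libraries lay between 334 and 448.5.

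EPHA4 and EPHB2 were also highest in Detroit 562. EPHA4 counted 234, 231 and 242 there, whereas FaDu had 28.5, 27.1 and 41.3 and SCC-9 41.1, 61.8 and 71.4. FaDu and SCC-9 met at the edge of their ranges, Detroit 562 was above both by a log2 of 2.86 and 2.02, and FaDu differed from SCC-9 by -0.84, all called. EPHB2, another receptor of the intestinal crypt, was higher in Detroit 562 by 1.33 over FaDu and 0.92 over SCC-9. Its difference between FaDu and SCC-9, a log2 of -0.41, was called but lay at the fold threshold, and without FaDu control 3 or SCC-9 control 3 it was -0.36 and -0.31 and was not called. EPHA2 and EPHA1, the founding member of the family, were called only between Detroit 562 and SCC-9, with log2 differences of 0.66 and 0.58 (differences between these comparisons were not tested). EPHA2 was higher in FaDu than in SCC-9 by 0.39, just under the fold threshold, and by 0.41 when same-numbered libraries were blocked, which passed.

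In the Detroit 562 cells HGF lowered EPHB3 and EFNA1 and raised EFNB1, and the other 7 genes were not called. Of all genes tested in this comparison 17.9% were called, 6.16% higher and 11.7% lower, so 1 gene called higher and 2 called lower of 10 stand near that background. The median log2 fold change was 0.07 over the 10 genes and -0.01 over all genes. Of 10 genes, 6 had HGF and control libraries that did not overlap, 2 higher and 4 lower with HGF, where 38.2% of all genes did so, 18.1% higher and 20.1% lower.

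**Figure D2:**
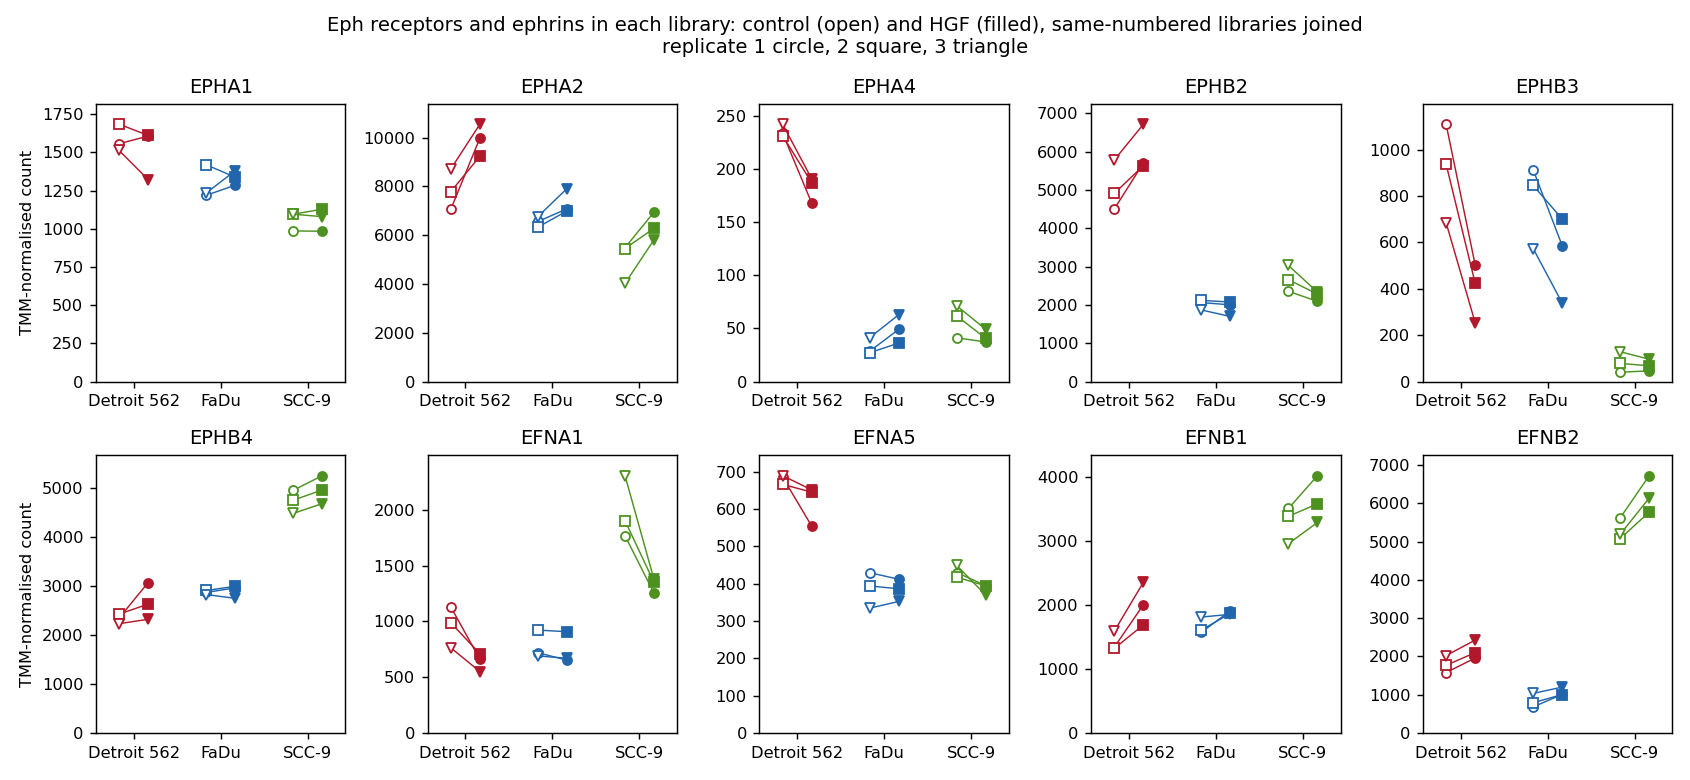
TMM-normalised counts of the 10 genes in every library, 1 panel per gene with its own axis from 0, control open and HGF filled, and same-numbered libraries joined. In Detroit 562 all 3 lines slope down for EPHB3 and EFNA1 and up for EFNB1, and EPHA2 slopes up in each of the 3 cell lines.

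Among the receptors EPHB3 was the one called. Its normalised counts in Detroit 562 were 1109.5, 937 and 685 in control and 504, 425 and 254 with HGF (replicates 1 to 3). Every HGF library was below every control library, and the number 3 library was lowest in each group. EPHB3 fell by 1.204 on the log2 scale (SE 0.342, adjusted p = 0.0181, edgeR) to 0.434 times the control level. It was called with each library left out in turn, with log2 values from -1.42 to -0.97. EPHB3 lies on chromosome 3 from 184561784 to 184582409 on the plus strand (GRCh38).

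EPHA2 was higher with HGF in Detroit 562 in all 3 pairs, with 7068, 7789.5 and 8723 normalised counts in control and 9989, 9242.5 and 10553.5 with HGF. The groups did not overlap, and the log2 difference of 0.34 ± 0.108 (SE, adjusted p = 0.0317, edgeR) was below the fold threshold. Without control 3 it was 0.42 and passed (adjusted p = 0.0143, edgeR). EPHB4 likewise passed the p threshold and not the fold threshold, at 0.20 ± 0.0832 (SE, adjusted p = 0.0924, edgeR). EPHB2 had a log2 difference of 0.25 (adjusted p = 0.107, edgeR), EPHA4 of -0.37 (adjusted p = 0.173, edgeR) and EPHA1 of -0.07 (adjusted p = 0.618, edgeR). For EPHA4 the counts were 234, 231 and 242 in control and 168, 187 and 191 with HGF, and these did not overlap.

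Of the ligands, EFNA1 and EFNB1 were called in opposite directions. EFNA1 had 1128, 987 and 762 normalised counts in control Detroit 562 and 660.0, 709.6 and 550.0 with HGF. The highest HGF library lay below the lowest control library. EFNA1 fell by 0.58 on the log2 scale (SE 0.162, adjusted p = 0.0163, edgeR), and without control 1, the highest control library, the difference was -0.45 and was not called (adjusted p = 0.104, edgeR). EFNB1 had 1340.4, 1320 and 1592 in control and 2002, 1688 and 2352 with HGF. The groups did not overlap, and EFNB1 rose by 0.51 ± 0.113 (SE, adjusted p = 0.00537, edgeR), to 1.42 times the control level. Without HGF 3, the highest library, EFNB1 was at 0.38, just below the fold threshold (adjusted p = 0.0296, edgeR). EFNB2, at 0.27 (adjusted p = 0.139, edgeR), and EFNA5, at -0.14 (adjusted p = 0.302, edgeR), were not called. EFNA1 spans 155127460 to 155134857 of chromosome 1 and EFNB1 spans 68828997 to 68842147 of chromosome X, both on the plus strand (GRCh38).

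The summed level of the 8 squamous markers was between 3046 and 4464 CPM in control and between 2047 and 3325 CPM in HGF-treated Detroit 562. These ranges overlapped, and KRT5 varied most among the markers, from 592.9 to 2576.1 CPM over the libraries of this line. The fibroblast sum was between 30.2 and 54.5 CPM in control and between 15.3 and 27.8 CPM with HGF. Only COL1A1 and COL1A2 reached 1 CPM there. The endothelial sum was also lower with HGF, without overlap. The leukocyte sum, nearly all CD68, went the other way with overlap, from 20.32 to 40.5 CPM in control and 37.34 to 56.2 CPM with HGF. The part of these markers in the HGF differences was not tested.

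In FaDu none of the 10 genes was called by edgeR's quasi-likelihood test or by DESeq2, where 0.0258% of all genes were called by edgeR. At an unadjusted p under 0.05 in edgeR there were 2, EPHA4 and EFNB2, against 8.06% of all genes, and DESeq2 without a fold change prior called 0.446% of all genes. At the same thresholds the paper, which used DESeq2 with a fold change prior, reported more regulated genes in FaDu and SCC-9 than edgeR called here. EPHA4 had 28.5, 27.1 and 41.3 normalised counts in control FaDu and 49.1, 36.2 and 62.9 with HGF. HGF was higher in each same-numbered pair, although the groups overlapped, and the log2 difference was 0.61 ± 0.239 (SE, adjusted p = 0.572, edgeR). EPHB3 was lower in each pair, with 913.5, 846 and 574 in control and 586, 701 and 339 with HGF, a log2 difference of -0.52 (adjusted p = 0.669, edgeR). Same-numbered libraries deviated together, and in a fit that blocked on that number both genes were called, EPHA4 at 0.61 (adjusted p = 0.0335, edgeR) and EPHB3 at -0.55 (adjusted p = 0.00201, edgeR), where that fit called 5.6% of all genes. EPHA2 and EFNB1 were the genes whose groups did not overlap, 2 of 10 and both higher with HGF, against 9.41% of all genes, 4.05% higher and 5.36% lower. Their log2 differences were 0.16 and 0.17 and were not called by either fit.

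In SCC-9 again none of the 10 genes was called by edgeR or DESeq2, where 0.0% of all genes were called by edgeR, and 3 had an unadjusted p under 0.05 in edgeR (EPHA2, EPHB2 and EFNA1) against 4.14% of all genes. DESeq2 without a fold change prior called 0.152% of all genes in SCC-9. EFNA1 had 1768, 1903 and 2307 normalised counts in control SCC-9 and 1253, 1349.7 and 1377 with HGF. The groups were well apart, and the log2 difference was -0.59 ± 0.157 (SE, adjusted p = 0.697, edgeR). With the replicate block EFNA1 was called at -0.58 (adjusted p = 0.000634, edgeR), where that fit called 1.97% of all genes. EFNA1 was also called when SCC-9 was fitted alone (adjusted p = 0.0853, edgeR), a fit whose share over all genes was not counted. EPHA2 had 5489, 5455 and 4021 in control and 6947, 6285 and 5816 with HGF, which did not overlap, at a log2 difference of 0.35 (adjusted p = 0.903, edgeR). EPHB2 was lower with HGF by a log2 of -0.26 and EFNB2 higher by 0.23, also without overlap. In all, 5 of 10 genes did not overlap, 2 higher and 3 lower, against 17.4% of all genes, 8.3% higher and 9.12% lower.

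**Figure D3:**
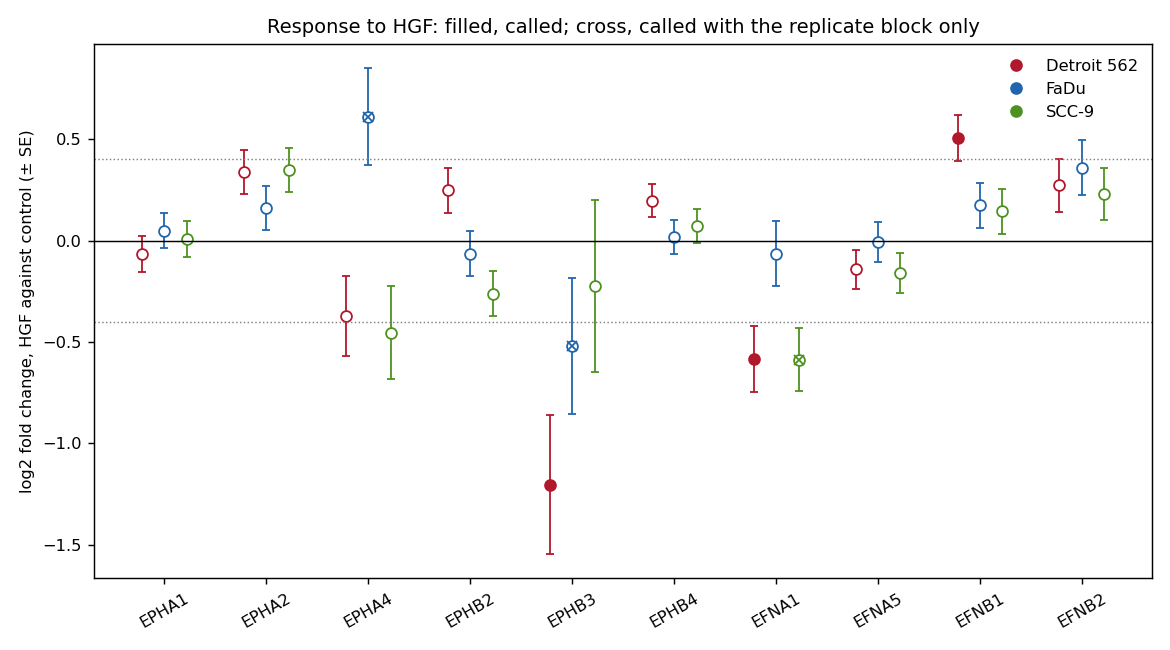
Log2 fold change of HGF against control with its standard error for the 10 genes in each line, filled where called, open where not called and crossed where called only with the replicate block. Dotted lines mark the fold threshold of 0.4. EPHB3, EFNA1 and EFNB1 are filled in Detroit 562, and EPHA4 lies above 0 in FaDu and below 0 in the other lines.

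Across the lines some genes kept one sign in all pairs. EPHA2, EFNB1 and EFNB2 were higher with HGF in 3 of 3 same-numbered pairs in each line, and EFNA1 was lower in 3 of 3 pairs in each line. EPHA4 was lower in all pairs of Detroit 562 and SCC-9 and higher in all pairs of FaDu. EPHB2 was higher in all pairs of Detroit 562 and lower in all pairs of the other lines. The share of all genes that kept one sign in such pairs was not counted, so these genes cannot be set against a background. With 3 libraries against 3, the exact permutation test of 1 gene cannot give a two-sided p below 0.1.

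The HGF responses of the lines were then compared with an interaction term, called at an adjusted p below 0.1. These comparisons share libraries with each other and with those above. In edgeR's quasi-likelihood test none of the 10 genes was called in any of the 3 comparisons, where 0.239% of all genes were called between Detroit 562 and FaDu, 0.924% between Detroit 562 and SCC-9 and 0.0% between FaDu and SCC-9. At an unadjusted p under 0.05 there were 2 of the 10 in each comparison, against 11.6%, 15.4% and 2.18% of all genes in the same order. DESeq2 called EPHA4 between Detroit 562 and FaDu (adjusted p = 0.0999 without a fold change prior) and EPHB2 between Detroit 562 and SCC-9 (adjusted p = 0.0699), and none of the 10 between FaDu and SCC-9, where it called 1.82%, 4.72% and 0.0259% of all genes it adjusted. With the replicate block edgeR called 5 genes between Detroit 562 and FaDu (EPHA4, EPHB2, EPHB3, EFNA1 and EFNB1), 3 between Detroit 562 and SCC-9 (EPHB2, EPHB3 and EFNB1) and 2 between FaDu and SCC-9 (EPHA4 and EFNA1), against 19.1%, 26.9% and 1.32% of all genes in that fit. EPHB3 fell in both Detroit 562 and FaDu, with the larger fall in Detroit 562. The log2 difference of these responses was -0.68 (SE 0.479, adjusted p = 0.592, and 0.00628 with the block, edgeR).

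To see the balance of receptors and ligands, RPKM values were summed over all 22 Eph and ephrin genes by class. The 10 genes made up 89.0% of this total in untreated Detroit 562, as well as 91.8% of that of FaDu and 92.5% of that of SCC-9. The EphA sum went from 58.0 ± 4.53 RPKM without HGF to 69.3 ± 3.19 with it in Detroit 562, from 47.2 ± 0.866 to 52.1 ± 3.30 in FaDu, and from 36.1 ± 4.88 to 44.3 ± 3.13 in SCC-9. In each line the HGF libraries lay above the control libraries. The EphA sum mainly followed EPHA2, which alone went from 47.46 to 59.95 RPKM in Detroit 562. EPHA2 went from 39.58 to 44.27 RPKM in FaDu and from 30.12 to 38.34 in SCC-9. EPHA1, the next EphA receptor by level, went from 8.43 to 8.05 RPKM in Detroit 562, from 6.87 to 7.10 in FaDu and from 5.63 to 5.66 in SCC-9. EPHA2 accounted for 57.0%, 58.4% and 49.7% of the summed receptor level in control Detroit 562, FaDu and SCC-9, and for 63.1%, 61.8% and 55.9% with HGF. The EphB sum overlapped between groups in each line, and its means lay between 19.6 and 25.6 RPKM.

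The ephrin-B sum also lay higher in each HGF library than in any control library of the line, with control at 20.4 ± 2.02 RPKM and HGF at 26.8 ± 3.33 in Detroit 562. The same pair of values was 17.1 ± 1.88 and 19.98 ± 0.361 RPKM for FaDu, and 51.5 ± 3.14 and 58.7 ± 4.79 RPKM for SCC-9. The ephrin-A sum was 25.2 ± 2.00 and 21.0 ± 0.508 RPKM in Detroit 562 and 35.6 ± 4.40 and 26.2 ± 1.43 in SCC-9, without overlap, and it overlapped in FaDu at 16.8 ± 1.53 and 15.7 ± 2.06. The ratio of EFNA1 to EPHA2 was 0.238 ± 0.0692 in control and 0.124 ± 0.0236 with HGF in Detroit 562, 0.793 ± 0.264 and 0.403 ± 0.0543 in SCC-9, and 0.228 ± 0.0446 and 0.195 ± 0.0462 in FaDu. Only the FaDu groups overlapped in this ratio. No test was run on the sums and ratios.

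**Figure D4:**
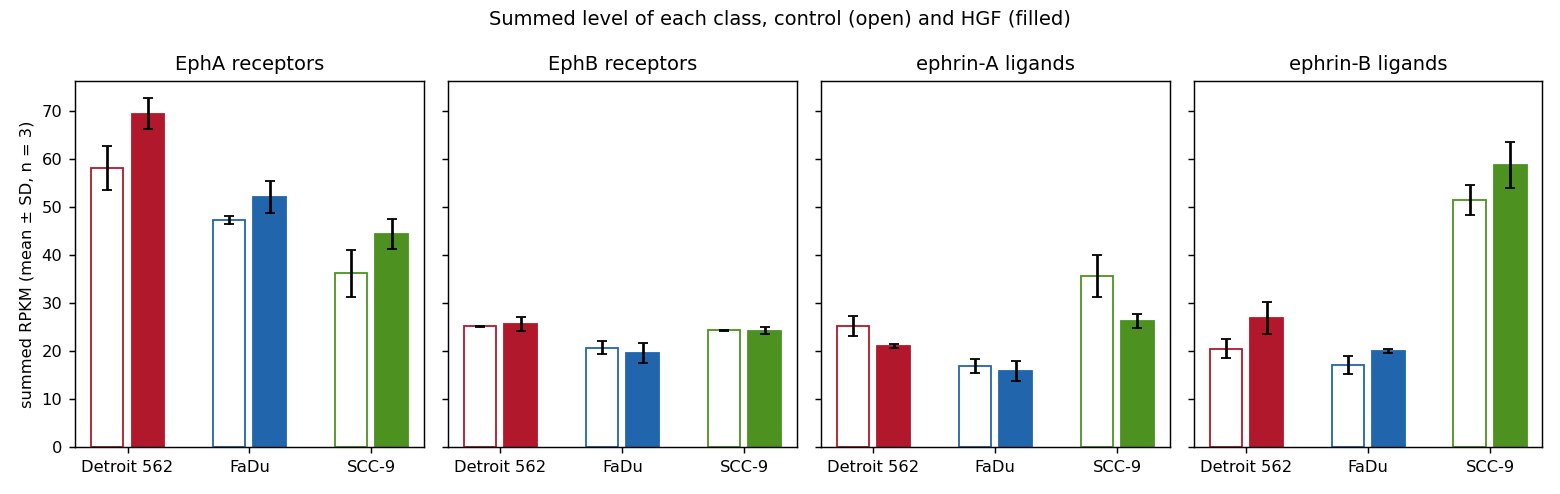
Summed RPKM of all 22 Eph and ephrin genes by class and line as mean and SD of 3 libraries, control open and HGF filled, with axes from 0. The ephrin-B sum in SCC-9 is above 50 RPKM in both groups, and the EphA and ephrin-B bars are taller with HGF in each line. EPHA2 makes up most of each EphA bar.

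The other 12 family genes were mostly at low levels. EFNA4 was the most abundant of them, at 9.40 RPKM in untreated Detroit 562, but the gene extents of EFNA4 and EFNA3 overlap with a readthrough gene that joins them, so their counts are not unique to them. In Detroit 562, 11 of the 12 had enough counts for a test and 4 were called with HGF, 1 higher and 3 lower, against the 17.9% of all genes given above. EPHA6, a receptor studied in the nervous system, had 988, 734 and 503 raw counts in control and 363, 381 and 223 with HGF, and fell by 1.09 on the log2 scale (adjusted p = 0.00192, edgeR). EPHA7 had 69, 31 and 15 against 8, 18 and 5 counts, a log2 difference of -1.75 (adjusted p = 0.0188, edgeR), and was not called without control 1 (adjusted p = 0.162, edgeR). EPHA3 had 86, 52 and 45 against 35, 38 and 16 counts at -0.93 (adjusted p = 0.0691, edgeR), a call that was lost without control 1, control 2, HGF 1 or HGF 3. EPHA5 was called at 1.71 (adjusted p = 0.0707, edgeR) from 14, 9 and 9 against 11, 9 and 74 counts. It rests on HGF 3, since without that library the difference was -0.05 (adjusted p = 0.960, edgeR). With the replicate block EPHB1 was called as well, at -0.72 (adjusted p = 0.0307, edgeR, and 0.125 without it). That fit called 21.5% of all genes in Detroit 562. In FaDu and SCC-9 none of the 11 was called, and none had an unadjusted p under 0.05 in edgeR.

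Downstream, a list of 39 genes known to act with Eph receptors or ephrins was examined, all of which had enough counts. In Detroit 562, 4 were called higher and 3 lower with HGF, against 17.9% of all genes (6.16% higher and 11.7% lower), so the share called did not stand out. The other 32 were not called, and the median log2 fold change was 0.08. Among 5 Src and Abl family kinases, which carry signals from Eph receptors to the cytoskeleton, ABL2 rose by 0.88 (adjusted p = 0.00856, edgeR) and FYN by 0.44 (adjusted p = 0.0192, edgeR), and 0 were lower. Among 8 adaptors, GRB10 rose by 0.46 (adjusted p = 0.0342, edgeR) and GRB7, which binds activated receptor kinases, fell by 0.54 (adjusted p = 0.00366, edgeR). The calls of FYN and GRB10 were lost without control 1, control 2 or HGF 3.

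VAV3, a guanine nucleotide exchange factor that acts after ephrin binding, was the 1 of 7 exchange factors called. It had 996, 829 and 458 normalised counts in control Detroit 562 and 364, 434 and 134 with HGF, which did not overlap. VAV3 fell by 1.29 on the log2 scale (adjusted p = 0.0199, edgeR), a call that was lost without control 1 (adjusted p = 0.108, edgeR). RGS3, a regulator of G protein signaling that binds ephrin-B tails, was called at -0.50 (adjusted p = 0.0845, edgeR) and was not called without control 1, control 2 or HGF 3. Of 7 phosphatases, proteases and other negative regulators 0 were called by edgeR, and 4 had an unadjusted p under 0.05, as 38.4% of all genes did. In Detroit 562 the exchange factor NGEF was called with the replicate block only, at 0.43 (adjusted p = 0.00853, edgeR), where that fit called 21.5% of all genes. In FaDu and SCC-9 none of the 39 was called, with 3 and 1 at an unadjusted p under 0.05 in edgeR, against the 8.06% and 4.14% of all genes given above. With the replicate block 1 of the 39, VAV3, was called in each line. It was lower by -0.47 in FaDu (adjusted p = 0.0181, edgeR) and -0.63 in SCC-9 (adjusted p = 0.00877, edgeR). That fit called 5.6% of all genes in FaDu and 1.97% in SCC-9, so 1 of 39 does not stand out.

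Finally, for each of the 10 genes the tested genes with the most similar pattern were found by Pearson's r of log2 CPM over the 18 libraries. These values mostly follow the differences between the 3 lines, which all genes share, and are given as a description. EPHB3 was most like LY6D (r = 0.990), a surface protein of squamous cells, and GGT6 (r = 0.989). EFNB1 was most like the transcription factors SNAI2 (r = 0.981) and MAFF (r = 0.981), and EPHA2 like the kinase FYN (r = 0.940) and WDR4 (r = 0.938). EFNA1 was most like the receptors TLR1 (r = 0.974) and TLR6 (r = 0.969), EPHB2 like NPR3 (r = 0.990) and STEAP3 (r = 0.988), and EFNB2 like IKBKAP (r = 0.994) and ADGRA3 (r = 0.992). For EPHA4 these were GGCX (r = 0.981) and POLD3 (r = 0.976), for EFNA5 CTNNA1 (r = 0.975) and RNF185 (r = 0.970), for EPHA1 JMJD7 (r = 0.963) and PROS1 (r = 0.960), and for EPHB4 the readthrough gene MINOS1-NBL1 (r = 0.984) and NT5C3B (r = 0.983). Within the 10 genes, EPHB2 and EFNA5 were the most alike (r = 0.943), and EPHB3 and EFNB1 the most opposed (r = -0.975).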

How the data were processed

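Per the labels, mRNA libraries were made with a stranded kit from poly(A) RNA. The submitters' processing notes name bcl2fastq 2.20.0.422, cutadapt 1.16, STAR 2.5.2b, bedtools and DESeq2 1.22.1. The authors aligned reads to GRCh38 with the GENCODE 28 annotation and deposited raw counts per gene without normalization, each read being counted for every gene extent it overlapped on its strand. Columns were mapped to samples by name, and 0 columns belonged to no sample. No batch was labelled.

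The counts were fitted here in R 4.3.3 with edgeR 4.0.16 (filterByExpr, 15475 of 19901 genes kept, TMM, quasi-likelihood test, 1 mean per line and treatment over 18 libraries). Calls required an adjusted p under 0.1 and a log2 fold change of 0.4 or more in either direction, and interactions the adjusted p alone. The fit was tested on simulated data. Exact permutation tests with 3 libraries against 3 cannot go below p = 0.1. RPKM used exon lengths of GENCODE 44, which the whole-extent counts may exceed by intronic reads. MLLT4 is the table's symbol for AFDN. The likeness of patterns used log2(CPM + 0.5).

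The members and lists were chosen with earlier results of these data known. The genes named were the 10 members, the called genes of the rest of the family and of the pathway list (at most 8 per line, without 1 group of that list that is not reported here), the 2 genes most like each member, and MET. Per the paper the experiment was repeated. Across genes, the deviations from the group mean of a control library and of the HGF library of the same number had correlations of 0.295, 0.161 and 0.454 for Detroit 562, while FaDu gave 0.376, 0.441 and 0.563 and SCC-9 gave 0.332, 0.203 and 0.286, so the numbers were taken to pair the libraries. In Detroit 562 control 1 also gave 0.218 with HGF 2, and control 2 gave 0.112 with HGF 1. The pairing of libraries 1 and 2 is thus less clear there. FaDu control 1 gave 0.139 with HGF 2, and every other pairing of unlike numbers was negative. Deviations from a group mean cancel within the group, so positive values for like numbers make negative ones for unlike numbers likely. The negative values are thus no separate evidence of pairing. Alternatives were the replicate block, DESeq2 1.42.0 with and without its prior, its size factors, no filter, at least 50 counts in 3 libraries, a fit of 1 line alone, and each library left out. No library was a copy of another: the chi-square per gene within groups was 7.91 to 75.9.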

Additional observations from a re-analysis of the deposited data

Results flagged for a closer look

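The HGF responses below differed between lines in a test of the difference itself when the replicate number was a block, and were not called in the test without it. All are log2 differences of the response from edgeR's quasi-likelihood test without the block. The 2 adjusted p values are those without and with it. Of all genes tested, the fit with the block called 19.1% between Detroit 562 and FaDu and 26.9% between Detroit 562 and SCC-9. Between FaDu and SCC-9 it called 1.32%. Between Detroit 562 and FaDu, EPHA4 differed by -0.98 (adjusted p = 0.271 and 0.00694), EPHB2 by 0.31 (0.454 and 0.0106), EPHB3 by -0.68 (0.592 and 0.00628), EFNA1 by -0.52 (0.4003 and 0.00645) and EFNB1 by 0.33 (0.439 and 0.0216). Between Detroit 562 and SCC-9, EPHB2 differed by 0.51 (adjusted p = 0.163 and 0.000314), EPHB3 by -0.98 (0.395 and 0.00293) and EFNB1 by 0.36 (0.296 and 0.00767). Between FaDu and SCC-9, EPHA4 differed by 1.06 (adjusted p = 1.00 and 0.0531) and EFNA1 by 0.52 (1.00 and 0.0275). For EPHA4 in both comparisons with FaDu and for EPHB2 in both comparisons with Detroit 562, every same-numbered pair of 1 line moved one way and every pair of the other line the opposite way. The share of all genes with such opposite pairs was not counted. EPHA4 is the least abundant of these genes, with 27.1 to 71.4 normalised counts in untreated FaDu and SCC-9.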

How the results depend on the processing

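The count of called Eph and ephrin genes under HGF in Detroit 562 was 3 in the reported fit, with the replicate block and under the other tools, filters and scalings tried, and 2 to 4 with each library left out. Of all genes tested there, 17.9% were called in the reported fit and 21.5% with the block. The calls between untreated lines ranged, with a library left out, from 4 to 5 for Detroit 562 and FaDu, from 6 to 8 for FaDu and SCC-9, and stayed at 10 for Detroit 562 and SCC-9. In the same order the reported fit called 61.0%, 64.2% and 65.4% of all genes. The replicate block, which pairs same-numbered libraries, raised the count from 0 to 2 in FaDu and from 0 to 1 in SCC-9, and for the differences in response from 0 to 5 (Detroit 562 and FaDu), 3 (Detroit 562 and SCC-9) and 2 (FaDu and SCC-9). Besides these and EPHA2 between untreated FaDu and SCC-9, it changed no call of the 10 genes. The block also raised the share of all genes called, from 0.0258% to 5.6% in FaDu and from 0.0% to 1.97% in SCC-9. For the differences in response, in the order above, that share went from 0.239% to 19.1%, from 0.924% to 26.9% and from 0.0% to 1.32%. A fit of SCC-9 alone called 1 gene, EFNA1, and the share of all genes called by that fit was not counted. DESeq2 with and without its prior called 1 gene in the response of Detroit 562 against FaDu and 1 in that against SCC-9, where leaving out a library gave 0 to 1 (EPHB2 without Detroit 562 control 3, 0.61, adjusted p = 0.0422, edgeR). Without its prior DESeq2 called 1.82% and 4.72% of all genes it adjusted in these comparisons. EPHA5 outside the 10 genes changed sign without Detroit 562 HGF 3, to -0.0514, and ranged up to 2.17 with other libraries left out. The rank of a gene's level within a line moved for 19 of 30 gene and line pairs without correction for length. The cause of these changes was not tested. Precision is limited by 3 libraries a group and, for EPHA4 in FaDu and SCC-9 and EPHB3 in SCC-9, by low counts. Intronic reads, counted with the rest, were not separated.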
